A study of Mus musculus with 8 samples.

Results

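Cyclic AMP phosphodiesterases are the enzymes that break cyclic AMP down to AMP, and the 10 genes described here encode the members that prefer cyclic AMP or, in the PDE3 family, hydrolyse it under inhibition by cyclic GMP. They are Pde3a and Pde3b, Pde4a to Pde4d, Pde7a, Pde7b, Pde8a and Pde8b, chosen by family membership and not by their values, out of 22180 genes measured. All 10 had a probe set annotated to that gene alone, and for Pde7a, which has 2, the brighter was used. Their transcripts were measured in epididymal white adipose tissue (eWAT), a fat depot of the abdomen that lies along the epididymis, of 5 Abhd15 knockout (KO) mice and 3 wild-type (WT) mice. All were males on a C57BL/6J background, kept on normal chow, aged 14 weeks, fasted overnight and refed with chow for 1 h before the tissue was frozen. Each mouse gave 1 Affymetrix Mouse Gene 2.0 ST array, made from 200 ng of RNA. The sources used here do not describe how the Abhd15 allele was made or in which cells the gene is lost.

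In adipocytes, hormones that raise cyclic AMP activate protein kinase A, which turns on the lipases that release fatty acids from stored triglyceride. Insulin opposes this after a meal: kinase AKT phosphorylates and activates PDE3B, a membrane-bound phosphodiesterase of fat and liver, and cyclic AMP falls. ABHD15, a member of the alpha/beta-hydrolases made mainly by fat cells, is known to bind PDE3B. The PDE4 enzymes carry out much of the remaining cyclic AMP breakdown in many tissues, while PDE7 and PDE8 work at low cyclic AMP concentrations. The comparison of KO with WT addresses how the loss of Abhd15 leaves the transcripts of these enzymes in the early refed state.

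Values are log2 signals after RMA (robust multi-array average, a background correction, normalization and probe summary), so a difference of 1 is a factor of 2. The tissue label was checked against adipocyte markers, whose mean signal over the 7 measured was 10.01 to 10.67 in KO arrays and 10.32 to 10.58 in WT arrays. Abhd15 itself read 5.77, 6.07, 6.27, 5.60 and 5.75 in KO 1 to KO 5, against 6.36, 6.45 and 6.15 in WT 1 to WT 3, with KO 3 inside the WT range. Its dimmer probe set read 3.207 to 4.186 in KO and 4.067 to 4.505 in WT, with KO 3 again inside the WT range. The Abhd15 probes may lie outside the deleted part, so these values do not check the genotype labels. KO 5 had the lowest median over the tested genes, 5.93 against 6.04 to 6.07 in the other arrays. Over all probe sets, dim ones included, its median was not low, at 3.09 against 2.93 (KO 1) to 3.12 (KO 3) in the other arrays. Transcripts of the reproductive tract were present in some arrays: the mean of 6 sperm genes was 5.36 in KO 4 and 3.80 to 4.28 in the other KO arrays, against 6.93 in WT 1, 5.61 in WT 2 and 3.64 in WT 3. The mean of 6 epididymis and seminal vesicle genes was highest in KO 4 (4.46) and WT 1 (4.28). Pde3b, Pde4b, Pde7a, Pde7b and Pde8b are also given without KO 4 and WT 1. Those values keep WT 2, whose sperm gene mean was above that of KO 4, so they are not free of such transcripts.

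Pde3b had by far the brightest signal among the 10 genes and was lower in every KO array than in any WT array. It read 11.09, 11.14, 10.91, 10.55 and 10.21 in KO 1 to KO 5, against 11.71, 11.33 and 11.32 in WT 1 to WT 3. The groups did not overlap, but the gap between the highest KO and the lowest WT array was smaller than the spread within KO, where KO 4 and KO 5 lay lowest. The means were 10.8 ± 0.394 in KO (SD, n = 5) and 11.4 ± 0.222 in WT (SD, n = 3). The log2 fold change of KO over WT was -0.67 (SE 0.222, 95% confidence interval -1.16 to -0.18), which is a KO level of 0.628 times the WT level. In the limma fit over 11090 genes the unadjusted p was 0.0128 and the adjusted p 0.352, so Pde3b did not pass the threshold of 0.05. An exact permutation test (two-sided) gave p = 0.0357, the smallest that 5 against 3 arrays can reach. Any gene without overlap between the groups gets this p, so it only restates the separation. Among all tested genes 5.54% were lower and 2.99% higher in KO without overlap. With replicate number as a block the difference of Pde3b was -0.40 (adjusted p = 0.229 in limma). Without WT 1 it was -0.54 and the unadjusted limma p rose to 0.0624. Leaving out WT 1 and KO 4 together gave -0.49 with an unadjusted limma p of 0.108.

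**Figure D1:**
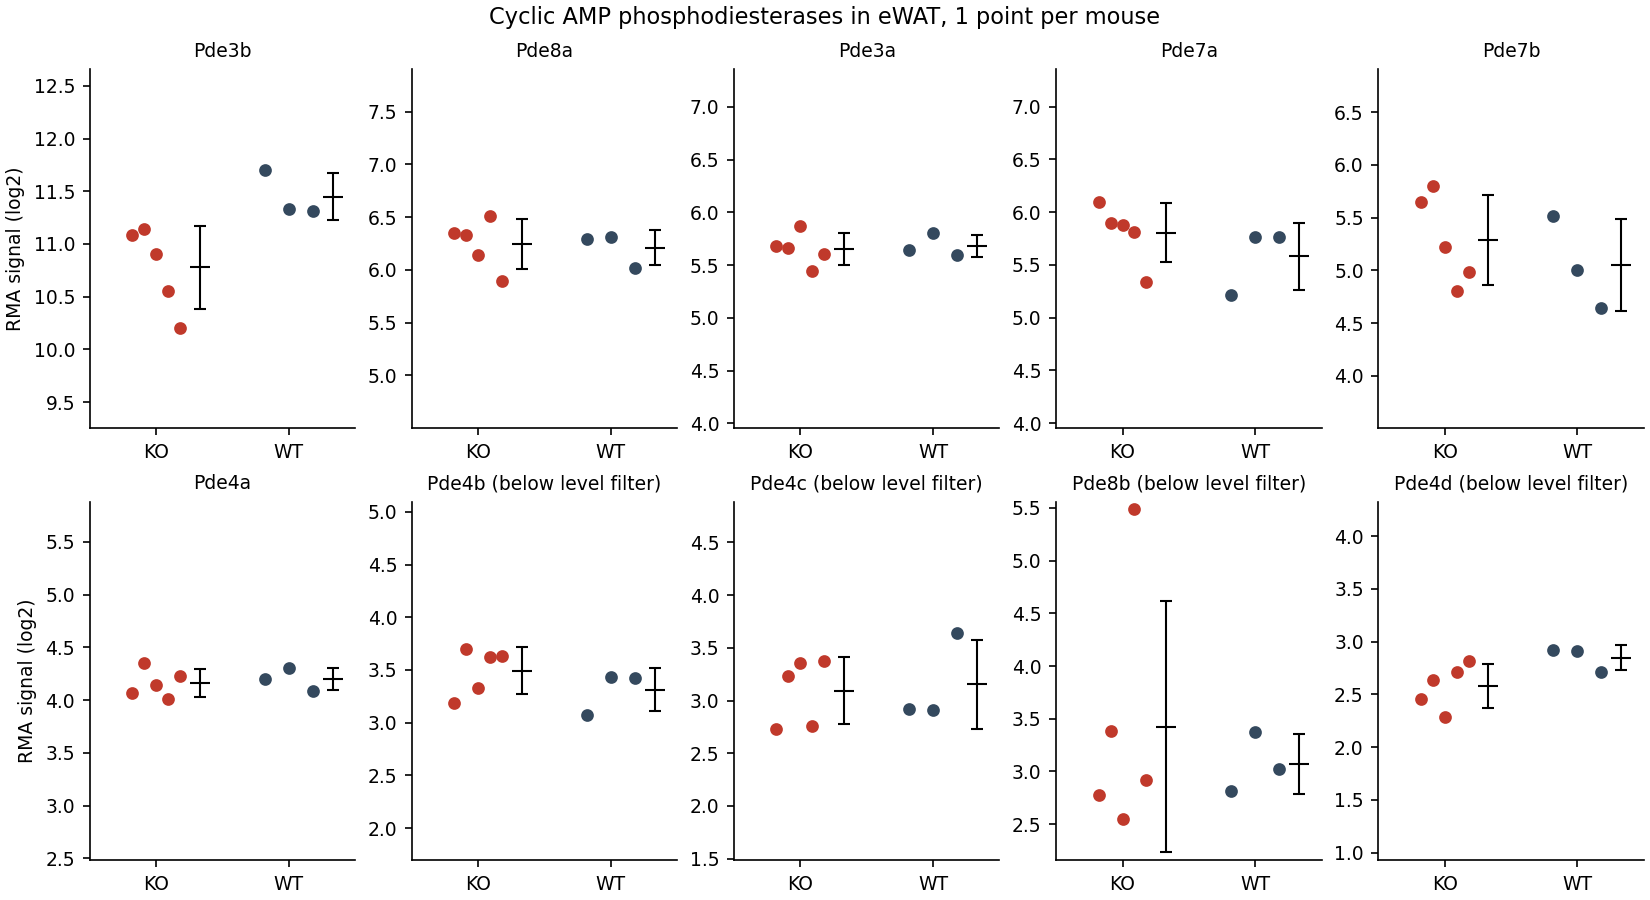
RMA signal (log2) of each cyclic AMP phosphodiesterase in KO (red, left) and WT (dark, right) eWAT, 1 point per mouse in replicate order, with mean and SD beside the points; all panels span the same range of log2 units. Pde3b is the panel in which all 5 KO mice (10.21 to 11.14) lie below all 3 WT mice (11.32 to 11.71), and in Pde8b KO 4 stands alone at 5.49.

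Adipocyte markers were lowest on average in KO 3 to KO 5, the arrays in which Pde3b was lowest too. Their mean was 10.67, 10.52, 10.25, 10.14 and 10.01 in KO 1 to KO 5, against 10.32, 10.58 and 10.50 in WT 1 to WT 3, so the groups overlapped. Of the 7 markers 6 had a log2 fold change below 0 and 1 above, with a median of -0.14, and none passed. For comparison, 6121 of all 11090 tested genes were below 0 and 4969 above, with a median of -0.03. Among the 7 markers Pparg alone, the master regulator of adipocyte differentiation, did not overlap between the groups. The separation was narrow, with KO 3 at 10.356 and WT 1 at 10.369, and 5.54% of all tested genes were lower in KO without overlap. Pde3b minus this mean was 0.42, 0.63, 0.65, 0.41 and 0.20 in KO 1 to KO 5, against 1.38, 0.75 and 0.82 in WT 1 to WT 3. The groups still did not overlap on that scale, and the difference between the group means was -0.52, compared with -0.67 for Pde3b alone. In whole tissue, fewer adipocytes and less Pde3b RNA per adipocyte cannot be told apart. With each array centred on its median over the tested genes, which lifts KO 5, the fold change of Pde3b was -0.64 (adjusted p = 0.317 in limma).

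**Figure D2:**
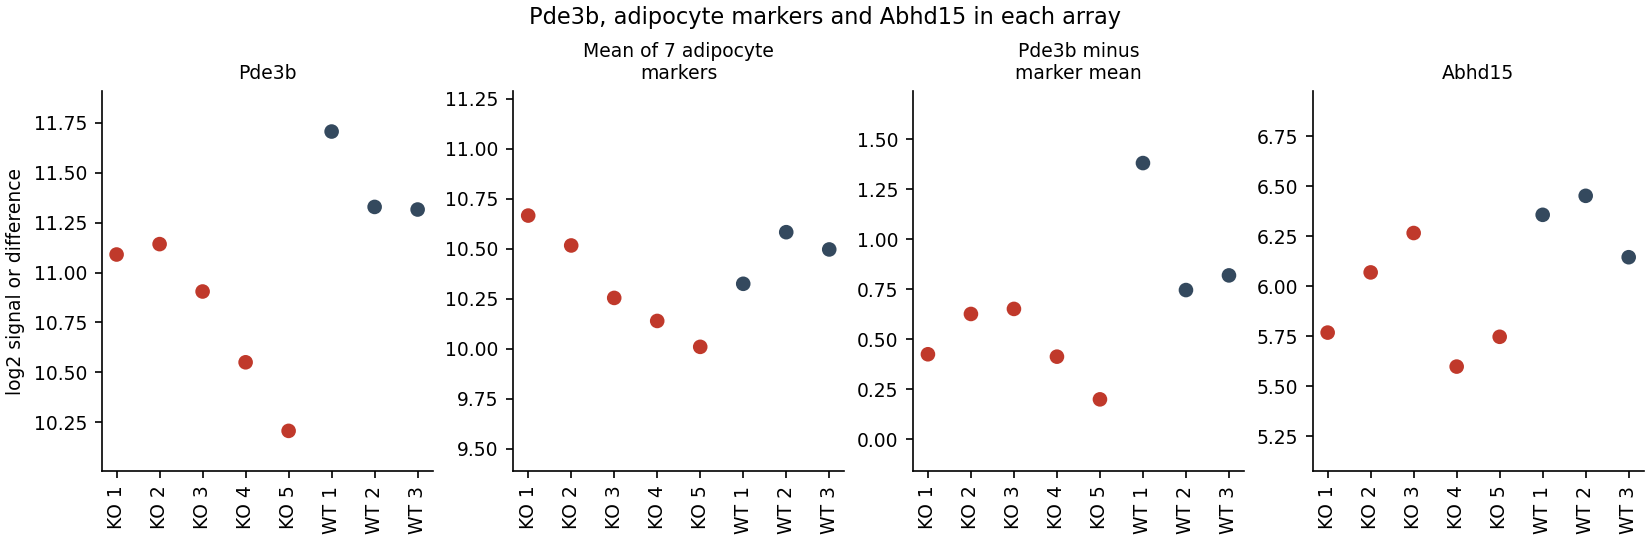
Signal (log2) by array, KO arrays in red and WT arrays dark, of Pde3b, of the mean of 7 adipocyte markers, of Pde3b minus that mean, and of Abhd15. Pde3b minus the marker mean is 0.20 to 0.65 in KO and 0.75 to 1.38 in WT, while the marker mean alone overlaps between the groups.

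No member passed the adjusted threshold, nor did any of the 11090 genes tested (0% called in limma). At an unadjusted p under 0.05 there were 716 genes lower and 448 higher in KO, and with the replicate number as a block 2 genes passed, neither of them a member. Of the 10 members 6 reached the level filter, a mean signal of at least 3.61, and were tested. Of these 6, Pde3b was the only one without overlap between the groups, and no member was separated in the higher direction. Over all tested genes 5.54% were lower and 2.99% higher in KO without overlap. Pde3b was also the only tested member with an unadjusted p under 0.05, where 6.46% of all tested genes were lower and 4.04% higher in KO. The 5 other tested members had a median log2 fold change of 0.04, against -0.03 over all tested genes, and ranged between -0.04 and 0.24.

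Pde3a, the other PDE3 gene and the main form in heart, platelets and oocytes, showed no such separation. Pde3a read 5.68, 5.67, 5.87, 5.44 and 5.60 in KO 1 to KO 5, against 5.65, 5.80 and 5.60 in WT 1 to WT 3. The ranges overlapped almost completely. Its log2 fold change was -0.03 (SE 0.130, 95% confidence interval -0.32 to 0.26, adjusted p = 0.957 in limma). The interval allows a KO level between 0.801 and 1.20 times WT. The intervals of Pde3b and Pde3a overlap, and the difference between them was not tested.

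Among the PDE4 genes, which encode the rolipram-sensitive enzymes, Pde4a alone was tested. Pde4a read 4.07, 4.36, 4.14, 4.01 and 4.23 in KO 1 to KO 5, against 4.20, 4.31 and 4.09 in WT 1 to WT 3. KO 3 and KO 5 lay inside the WT range, and KO 1, KO 2 and KO 4 less than 0.1 outside it. The log2 fold change was -0.04 (SE 0.126, 95% confidence interval -0.32 to 0.24, adjusted p = 0.942 in limma).

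Pde4b, Pde4c and Pde4d lay below the level filter, where RMA compresses differences, and are described without a call. Pde4b, known in other cells as a cyclic AMP-induced gene, read 3.19, 3.70, 3.33, 3.62 and 3.64 in KO 1 to KO 5, against 3.08, 3.44 and 3.42 in WT 1 to WT 3. KO 2, KO 4 and KO 5 were above the highest WT array, and the mean difference was 0.18 (exact two-sided permutation p = 0.286), or 0.03 without KO 4 and WT 1. Pde4c ranged over 2.73 to 3.38 in KO and 2.91 to 3.64 in WT, with a mean difference of -0.06 that had no stable sign: it was 0.18 without WT 3 and -0.19 without WT 2, and also above 0 without KO 1 (0.03) or KO 4 (0.02). Pde4d, another gene that cyclic AMP induces in other cells, read 2.46, 2.64, 2.29, 2.71 and 2.82 in KO 1 to KO 5, against 2.92, 2.91 and 2.71 in WT 1 to WT 3. KO 4 equalled WT 3 and KO 5 lay above it, while the other KO arrays were lower. The mean difference of Pde4d was -0.27 (exact two-sided permutation p = 0.107). In a fit without the level filter its 95% confidence interval was -0.60 to 0.06.

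Pde7a and Pde7b encode the cyclic AMP-specific PDE7 enzymes. Pde7a read 6.10, 5.90, 5.88, 5.82 and 5.34 in KO 1 to KO 5, against 5.21, 5.76 and 5.77 in WT 1 to WT 3. KO 1 to KO 4 lay above all WT arrays and KO 5 inside the WT range. Its log2 fold change was 0.23 (SE 0.196, 95% confidence interval -0.21 to 0.66, adjusted p = 0.718 in limma), 0.04 without WT 1 (also with KO 4 left out) and 0.38 with the replicate number as a block. The dimmer probe set of Pde7a read 3.24, 3.30, 3.65, 3.85 and 3.59 in KO 1 to KO 5, against 3.10, 3.20 and 3.23 in WT 1 to WT 3. There the groups did not overlap, by a margin of 0.01 between KO 1 and WT 3, at a mean signal below the level filter. The mean difference at that probe set was 0.35 (exact two-sided permutation p = 0.0357, the smallest possible and the value that any separation gives). The probe sets thus differed in whether the groups overlapped.

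Pde7b was the most variable of the 6 tested members in both groups. It read 5.65, 5.80, 5.22, 4.80 and 4.98 in KO 1 to KO 5, against 5.51, 5.00 and 4.64 in WT 1 to WT 3. The WT arrays alone spanned nearly the range of the KO arrays, with SDs of 0.427 in KO (n = 5) and 0.438 in WT (n = 3). Its log2 fold change was 0.24 (SE 0.265, 95% confidence interval -0.35 to 0.83, adjusted p = 0.786 in limma). The value depended on single arrays, at 0.03 without WT 3, 0.47 without WT 1 and 0.11 without KO 2. It was -0.05 without KO 1 and KO 2, and 0.51 with the replicate number as a block. Without KO 4 and WT 1 it was 0.59 (unadjusted p = 0.04995 and adjusted p = 0.742 in limma).

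PDE8A and PDE8B have a high affinity for cyclic AMP and resist the general inhibitor IBMX. Pde8a read 6.35, 6.33, 6.15, 6.51 and 5.89 in KO 1 to KO 5, against 6.30, 6.32 and 6.02 in WT 1 to WT 3. KO 4 was the highest and KO 5 the lowest of all 8 arrays. Its log2 fold change was 0.04 (SE 0.160, 95% confidence interval -0.32 to 0.39, adjusted p = 0.957 in limma).

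Pde8b was dim except in 1 array. It read 2.78, 3.39, 2.55, 5.49 and 2.92 in KO 1 to KO 5, against 2.81, 3.37 and 3.03 in WT 1 to WT 3. KO 4 lay over 2 log2 units above every other array. In that array the epididymis markers Adam7, a sperm-surface metalloprotease relative, and Lcn5, a retinoid-binding lipocalin, were also highest. Adam7 read 10.25 in KO 4, against 1.69 to 4.93 in the other KO arrays and 1.67 to 1.91 in WT. Lcn5 read 8.56 in KO 4, against 2.73 to 3.44 in the other KO arrays and 2.23 to 2.63 in WT. Another epididymis gene on the list, the ribonuclease relative Rnase10, was dim in all arrays and lowest in KO 4, at 1.31 against 1.43 to 1.92 in the other KO arrays and 1.36 to 1.75 in WT. The mean of the 6 epididymis and seminal vesicle markers was 4.46 in KO 4 and 4.28 in WT 1, and 1.94 to 2.46 elsewhere. Pde8b read 2.81 in WT 1, where the seminal vesicle genes and not Adam7 or Lcn5 were high. The part of these transcripts in the Pde8b value was not tested. With KO 4 the mean difference of Pde8b was 0.35, without it -0.16, and without KO 4 and WT 1 -0.29.

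**Figure D3:**
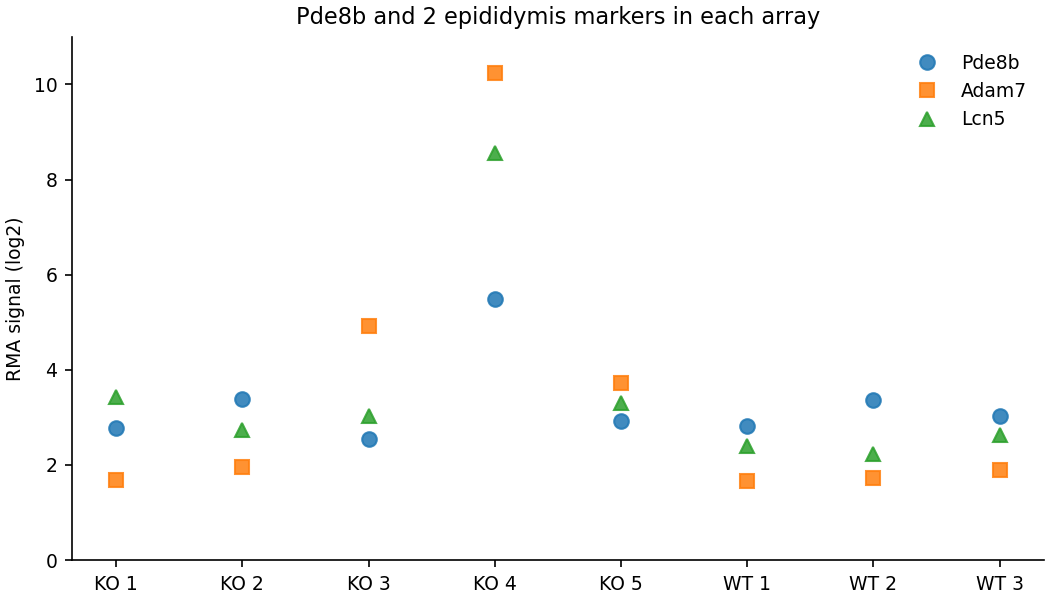
RMA signal (log2) of Pde8b and of the epididymis markers Adam7 and Lcn5 in each array, KO arrays left and WT arrays right. All 3 genes are highest in KO 4, at 5.49, 10.25 and 8.56, and Adam7 is also raised in KO 3 (4.93) where Pde8b is not (2.55).

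By signal in WT the order was Pde3b, Pde8a, Pde3a, Pde7a, Pde7b, Pde4a, Pde4b, Pde4c, Pde8b and Pde4d. Probe sets differ in affinity, so this is an order of array signals and not of transcript numbers. The WT means were 11.4 for Pde3b, 6.21 for Pde8a, 5.68 for Pde3a, 5.58 for Pde7a and 5.05 for Pde7b. Pde4a followed at 4.20, and then Pde4b at 3.31, Pde4c at 3.15, Pde8b at 3.07 and Pde4d at 2.85. Pde3b held rank 52 among all 22180 genes in WT, while Pde8a, next in the order, held rank 5114. The lowest WT value of Pde3b exceeded the highest of Pde8a by 5.00 log2 units, and in KO the corresponding gap was 3.70. Pde8a over Pde3a, Pde7b over Pde4a and Pde4a over Pde4b were also separated in all WT arrays, by 0.21, 0.33 and 0.66. Neighbours among Pde3a, Pde7a and Pde7b overlapped in WT, as did neighbours among Pde4b, Pde4c, Pde8b and Pde4d, so the order of such neighbours lies within the spread. The ends of these groups were separated in WT. The lowest value of Pde3a was 5.60 and the highest of Pde7b 5.51, and the lowest of Pde4b was 3.08 and the highest of Pde4d 2.92. In KO the order was the same except that Pde7a stood above Pde3a and, through KO 4, Pde8b above Pde4c.

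**Figure D4:**
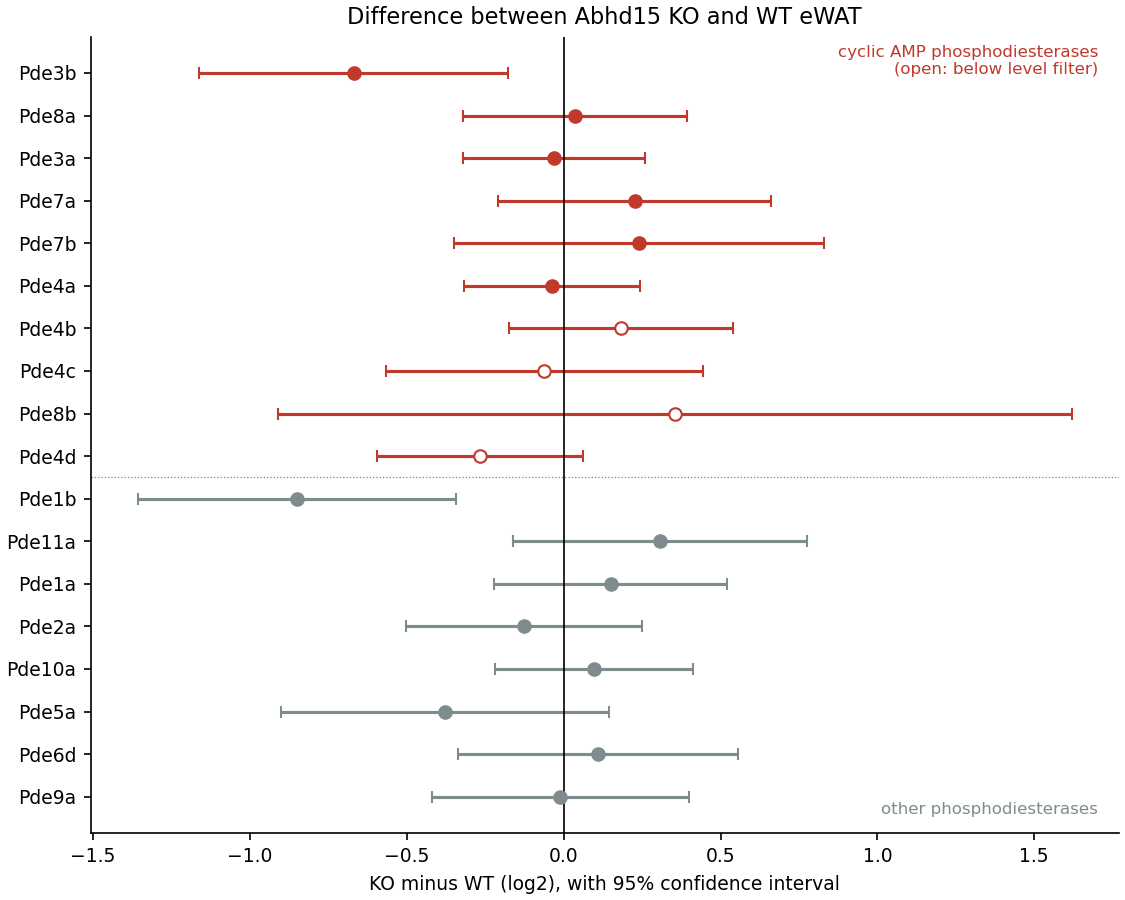
KO minus WT difference (log2) with its 95% confidence interval from limma for the cyclic AMP phosphodiesterases in WT signal order (red) and, below the dotted line, other phosphodiesterases that reached the level filter (grey). Open symbols are members below the filter, from the fit without it; the intervals of Pde3b (-1.16 to -0.18) and Pde1b (-1.36 to -0.34) lie below 0, and neither gene passed after adjustment.

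The other phosphodiesterases serve as the nearest comparison. Of the dual-specificity genes, which hydrolyse both cyclic AMP and cyclic GMP, 5 of 6 were tested and none passed. Pde1b, which is activated by calcium and calmodulin, read 5.21, 5.03, 4.85, 4.88 and 4.57 in KO 1 to KO 5, against 6.23, 5.19 and 5.86 in WT 1 to WT 3. KO 1 lay just above WT 2 and the other KO arrays below all WT arrays. Its log2 fold change was -0.85 (SE 0.228, adjusted p = 0.279 in limma), the lowest unadjusted p of any phosphodiesterase tested (0.00393). The fold change of Pde1b was -0.62 without WT 1 (adjusted p = 0.713 in limma), -1.14 without WT 2, and -0.61 without KO 4 and WT 1. Pde11a stood at 0.31, Pde1a, also calcium-activated, at 0.15, Pde10a at 0.10 and Pde2a, which cyclic GMP stimulates, at -0.13, while Pde1c was below the filter. These values moved with single arrays: leaving 1 out gave 0.16 (without KO 3) to 0.41 for Pde11a, 0.07 (without KO 4) to 0.26 for Pde1a and -0.33 (without WT 1) to -0.02 (without WT 2) for Pde2a, and Pde2a was -0.30 without KO 4 and WT 1. Of the 8 genes listed by name as cyclic GMP phosphodiesterases or their subunits, 3 were tested and none passed. These 3 were Pde5a, the target of sildenafil, at -0.38 (-0.18 without KO 4 and WT 1), Pde6d at 0.11 and Pde9a at -0.01. The photoreceptor genes Pde6a, Pde6b, Pde6c, Pde6g and Pde6h lay below the filter.

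The genes whose profile was most like that of Pde3b were ranked by Pearson's r over the 8 arrays, as a description without a test, since these arrays share the group difference and the low KO 5. They were Apmap, an adipocyte membrane protein (r = 0.977), Tsn (0.976), Pik3ca, a catalytic subunit of phosphoinositide 3-kinase (0.971), Bcl2l13 (0.969), Eya3 (0.967) and Plekhm1 (0.967). After each group's mean was subtracted their r lay between 0.927 and 0.974. All 6 had log2 fold changes below 0, between -0.29 and -0.56, and none passed. The ranking itself favours genes that are lower in KO and lowest in KO 5, so neither trait is a separate result. Apmap read 7.85, 7.84, 7.79, 7.54 and 7.27 in KO 1 to KO 5, against 8.36, 8.15 and 7.92 in WT 1 to WT 3, with no overlap. Of the other tested members the closest to Pde3b over 8 arrays was Pde3a (r = 0.332), and after subtraction of the group means it was Pde7b (r = 0.844). Abhd15 had r = 0.751 with Pde3b, and 0.482 after subtraction.

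**Figure D5:**
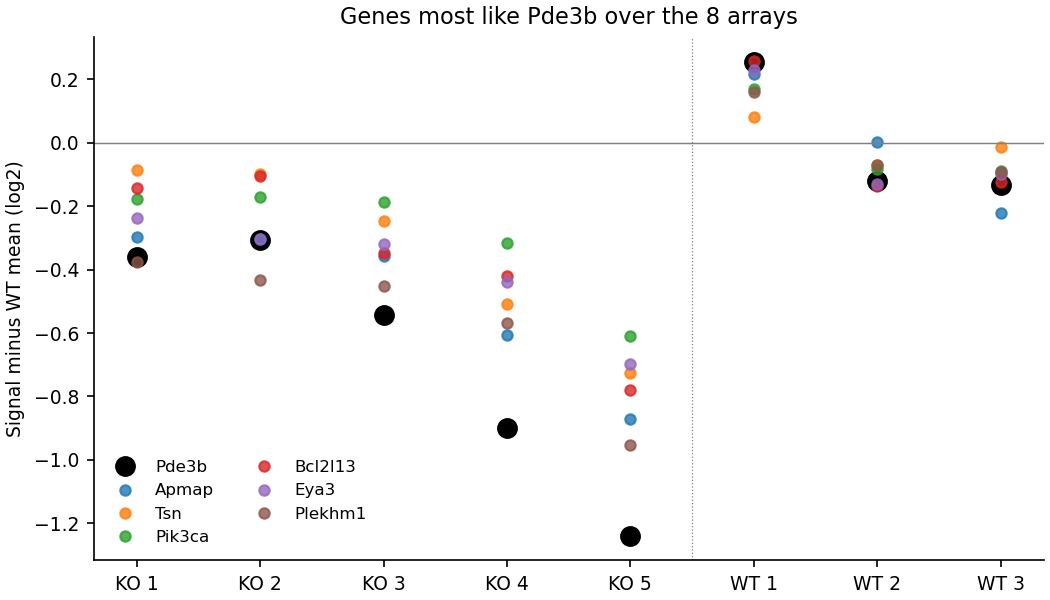
Signal minus the WT mean of the same gene (log2) in each array for Pde3b (large black points) and the 6 genes most like it, KO arrays left of the dotted line and WT arrays right. All 7 genes are lowest in KO 5, where Pde3b lies furthest below its WT mean.

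Cyclic AMP acts on genes through CREB, which binds the sequence TGACGTCA or its core TGACG, so the promoters of the members were searched for both on either strand. RefSeq windows of 300 bases (250 before and 50 after a start, GRCm38.p6) were at hand for 7 members, namely Pde4a to Pde4d, Pde7b, Pde8a and Pde8b, with 16 windows in all. None held the whole element, which 1.79% of all 32851 windows hold, and 4 held the core, against 20.8% of all windows. The stretches that hold the core upstream of a start are shown with the core, read on either strand, in capitals. They lie at chr4:102421494-102421553, chr7:81213154-81213213 and chr9:21184024-21184083, all on the + strand, and the core begins 34, 84 and 50 bases before the start.
Pde4b: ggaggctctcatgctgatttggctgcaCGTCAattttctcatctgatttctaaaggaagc
Pde8a: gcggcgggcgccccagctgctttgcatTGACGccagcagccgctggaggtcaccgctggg
Pde4a: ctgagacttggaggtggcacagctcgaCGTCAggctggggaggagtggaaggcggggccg
In Pde8b the core begins 38 bases after the start of 1 window. None of these 4 genes was separated between the groups, with mean differences of 0.18 for Pde4b, 0.04 for Pde8a, -0.04 for Pde4a and 0.35 for Pde8b.

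The genes around the phosphodiesterases in the pathway were counted from fixed lists, and none of their members passed after adjustment. Counts of direction here and below stand beside 4969 genes above 0 and 6121 below among all 11090 tested (median -0.03). Among partners and scaffolds of phosphodiesterases, 6 of 19 tested genes had a log2 fold change above 0 and 13 below (median -0.14). Beside Abhd15 (-0.43), those with the smallest unadjusted p were Pik3r6, a regulatory subunit of phosphoinositide 3-kinase gamma (-0.40), and the kinase A anchors Akap13 (-0.44) and Akap10 (-0.32). In the chain by which insulin activates PDE3B, 2 of 11 tested genes were above 0 and 9 below (median -0.26), and 3 were separated between the groups, all lower in KO, where 5.54% of all tested genes were. Pik3cb, a catalytic subunit of phosphoinositide 3-kinase, read 8.44, 8.19, 7.86, 7.68 and 7.74 in KO 1 to KO 5, against 9.04, 8.91 and 9.07 in WT 1 to WT 3 (-1.03, adjusted p = 0.140 in limma). With array weights, which give KO 5 the least weight, Pik3cb passed (-0.95, adjusted p = 0.0463 in limma). The insulin receptor Insr ranged over 8.81 to 9.02 in KO and 9.38 to 9.54 in WT (-0.54). The remaining separated gene was Pik3ca (-0.29), which is also among the genes most like Pde3b. The kinase complex subunit Rictor (-0.34) and the receptor substrate Irs2 (0.41) overlapped between the groups.

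Genes that set cyclic AMP synthesis lay on both sides of 0. Of 4 tested receptors that raise cyclic AMP, 1 was above 0, the melanocortin receptor Mc5r (1.06, adjusted p = 0.279 in limma), which ranged over 4.83 to 6.15 in KO and 3.81 to 4.47 in WT. The other 3 were the corticotropin receptor Mc2r (-0.41), the thyrotropin receptor Tshr (-0.37) and the prostaglandin receptor Ptger4 (-0.10). Of 7 tested receptors and G proteins that lower it, 5 were above 0 and 2 below, with Gnai1 at 0.27, Gnai3 at 0.24, Gnai2 at 0.15 and the lactate receptor Hcar1 at 0.62. Among 6 tested adenylyl cyclases, which make cyclic AMP, 3 were above 0 and 3 below. Adcy5 read 8.33, 8.41, 7.41, 7.31 and 7.53 in KO 1 to KO 5, against 8.68, 8.46 and 8.63 in WT 1 to WT 3, without overlap (-0.79, adjusted p = 0.352 in limma). Adcy4 was separated as well (-0.59), by less than 0.01 between KO 5 (6.551) and WT 1 (6.555), while Adcy7 (0.36) and Adcy6 (-0.11) overlapped. Separation in this direction was found for 5.54% of all tested genes. Of 8 endothelial markers 6 were below 0 and 2 above, and none passed. At an unadjusted limma p under 0.05, 4 of the 8 were lower in KO, as were 6.46% of all tested genes. Kdr alone was separated, at 7.88 to 8.35 in KO and 8.76 to 8.88 in WT. The mean of the 8 was 7.10 to 7.43 in KO and 7.42 to 7.74 in WT, overlapping through KO 5. The part of endothelial transcripts in these values was not tested.

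Downstream of cyclic AMP, 3 of 8 tested effectors were above 0 and 5 below (median -0.10). The kinase A regulatory subunits Prkar2a (-0.38), Prkar1a (-0.38) and Prkar1b (-0.29) were below 0 and the catalytic subunit Prkaca (0.35) above. Of 9 tested lipolysis effectors 3 were above 0 and 6 below (median -0.12), with the monoglyceride lipase Mgll at 0.35, the triglyceride lipase Pnpla2 at -0.12, the droplet coat protein Plin1 at -0.24 and the hormone-sensitive lipase Lipe at -0.12. Of 11 tested cyclic AMP-induced genes 7 were above 0 and 4 below (median 0.30, lowest -1.09). At an unadjusted limma p under 0.05, 4 were higher and 1 was lower in KO. Over all tested genes 4.04% were higher and 6.46% lower at that level. Sik1, a kinase that restrains CREB coactivators, read 7.73, 7.78, 7.11, 7.32 and 7.76 in KO 1 to KO 5, against 6.65, 6.74 and 6.54 in WT 1 to WT 3, without overlap (0.89, adjusted p = 0.170 in limma). Separation in the higher direction was found for 2.99% of all tested genes. The early response factors Nr4a1 (1.38), Fosb (2.20) and Fos (1.60) were highest in KO 1, KO 2 and KO 3, but the WT means of Fosb and Fos lay below the level filter. Both reached it only through the KO arrays in which they were high, so their fitted differences are not sizes of change. Their place in the counts of higher genes supports nothing. The same holds for Fosb with the replicate number as a block, where its adjusted p in limma was 0.0409. Pde4b, also cyclic AMP-induced in other cells, was highest in KO 2 but lower in KO 1 and KO 3 than in KO 4 and KO 5, and among KO arrays Pde4d was highest in KO 4 and KO 5.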

How the data were processed

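RNA of 8 eWAT samples, each from 1 mouse by the labels, was hybridised to 1 array each; nothing says when the mice were handled, so p-values measure the spread between these arrays. The authors deposited 1 log2 value per probe set and array. The submitters' processing notes name RMA and oligo, while Expression Console appears in the design text. Their versions, any filters and the build were not given in the sources used here. Values were used as deposited.

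Of 41345 probe sets, 23521 had 1 gene symbol in the platform annotation, 1814 several and 16010 none listed, and 23328 were matched by Entrez identifier to GRCm38.p6 names. Each of 22180 genes was represented by its brightest probe set (mean of the 8 arrays). The 11090 genes at or over the median signal (3.61) were tested by limma 3.58.1 (R 4.3.3; lmFit, eBayes), KO against WT, two-sided, Benjamini-Hochberg adjusted over all tested genes, threshold 0.05. Every adjusted or unadjusted p is limma's unless an exact permutation test is named, which runs over the 56 ways to divide 8 arrays into 5 and 3 (10 members compared; unadjusted). The number of arrays limits the precision. Confidence intervals are limma's. The fit was tested on simulated data. Figures were drawn with matplotlib 3.10.9.

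KO and WT share replicate numbers 1 to 3, and the meaning of the number is not stated. After subtraction of group means, same-numbered arrays correlated at 0.133, 0.103 and 0.192 over the tested genes. Arrays of unlike number were not compared, so these values cannot show whether the numbers pair the arrays. The main fit treated the arrays as unpaired, and a fit with the number as a block was an alternative. That contrast rests on replicates 1 to 3 alone. Named genes were all members, all tested phosphodiesterases, up to 4 genes of smallest unadjusted p per pathway list, and the 6 genes most like Pde3b, predicted genes and small RNAs left out. Genes named beyond this, such as Pparg, Kdr, Adam7 and Lcn5, were chosen after their values were seen. Members, lists and alternatives were chosen with earlier results of these data known. Marker lists were further made for macrophages, T and B cells, fibroblasts, smooth muscle and pericytes, mesothelium, skeletal muscle and erythroid cells. Macrophage, fibroblast and mesothelial list means overlapped between the groups, as did those of T and B cells, smooth muscle and skeletal muscle, and no erythroid marker had a probe set of its own.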

Additional observations from a re-analysis of the deposited data

Results flagged for a closer look

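Among the 5 KO arrays, 62 genes described here were searched for an array far from the others (a gap to the nearest array large relative to the whole range), which chance alone gives for about 5% of such groups, and 5 genes had one. Pde8b read 5.486 in KO 4, against 2.55 to 3.39 in the other KO arrays. Pik3r6 read 4.468 in KO 2, against 3.95 to 4.06. Akap13 read 8.828 in KO 5, against 8.10 to 8.20. Mc5r read 6.153 in KO 1, against 4.83 to 5.12. Adcy7 read 4.674 in KO 1, against 5.19 to 5.33.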

How the results depend on the processing

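Pde3b stayed below 0 in all 17 alternatives (-0.89 to -0.40) and passed in none (limma adjusted p 0.211 to 0.764); its unadjusted p was under 0.05 in 15, the exceptions being without WT 1 and without WT 1 and KO 4. No member passed in any of them. The count of genes passing was 0, but 2 with the replicate block, 3 with a trended robust prior, 40 with array weights and 0 to 5 when single arrays were left out (5 without KO 5). Of the other phosphodiesterases and pathway genes, 1 passed with the replicate block (Fosb, 3.31, with all WT values below the level filter) and 1 with array weights (Pik3cb, -0.95). In the order by WT signal 2 members changed place with the mean of probe sets, and 2 to 3 when a WT array was left out. Directions near 0 turned. With the replicate block these were Pde3a (0.058), Tshr (0.11), Ptger4 (0.045), Plin1 (0.19) and Lipe (0.0343), and with centred arrays Pde9a (0.0144). Without KO 1 and KO 2 they were Pde7b (-0.05), Pde8a (-0.027), Pde6d (-0.0463), Pde9a (0.13) and Hcar1 (-0.018), and without KO 4 and WT 1 Pde3a (0.0043), Pde4a (0.003) and Mc2r (0.0063). Leaving out single arrays gave ranges of -0.0839 to 0.0307 for Pde3a, -0.0923 to 0.0152 for Pde4a, -0.0604 to 0.124 for Pde8a, -0.0502 to 0.17 for Pde10a, -0.019 to 0.27 for Pde6d, -0.14 to 0.16 for Pde9a, -0.18 to 0.0186 for Ptger4 and -0.20 to 0.0012 for Lipe. The causes were not tested. In all, 51 single genes other than Pde3b were recomputed in 867 gene and setting pairs, of which 837 kept direction and side of the threshold, 28 turned and 2 passed newly. Signals near background limit what can be said of Pde4b, Pde4c, Pde4d and Pde8b.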
